A study of Mus musculus with 4 samples.

Results

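The genes described here are 10 cytochrome P450 genes of the mouse Cyp2c cluster on chromosome 19: Cyp2c39, Cyp2c29, Cyp2c38, Cyp2c37, Cyp2c50, Cyp2c54, Cyp2c55, Cyp2c67, Cyp2c68 and Cyp2c70. They are 10 of 21697 protein-coding genes, selected on the FPKM difference of Cyp2c39 between knockout and wild type in these same libraries, together with its neighbours. The difference between the genotypes in these genes is therefore given as a description, with no p-value. The RNA came from livers of male C57BL/6 mice on 1 diet, the soy-free AIN-93G formula with 2.5 mg of iron per kg, fed from 5 weeks of age for 50 days before tissue was taken at 12 weeks. The Hjv knockout group, homozygous for a disrupted hemojuvelin gene in the whole animal, has 2 libraries, and the wild type group has 2 libraries. Hemojuvelin is a co-receptor for bone morphogenetic proteins in hepatocytes, and mice that lack it load iron in the liver. The low iron diet was common to both groups, and no group on a standard diet was analysed here. Whether the libraries came from separate animals is not stated in the labels, so the spread may be technical.

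Cyp2c enzymes are haem proteins of the endoplasmic reticulum of hepatocytes. They take electrons from cytochrome P450 reductase and cytochrome b5 and oxidise drugs, arachidonic acid, retinoids and bile acids. In mouse liver several of them are induced through the nuclear receptors CAR and PXR and depend on hepatocyte factors such as HNF4A and the FOXA proteins, and some differ between the sexes.

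Transcripts had been assembled in each library on its own, without gene names, and each assembled stretch is called a locus below. Its value is FPKM, the fragments counted per kilobase of transcript after correction for library depth, so levels can be compared between genes per length. Knockout replicates 1 and 2 held 56237 and 30190 loci and about 55.0 and 132 M fragments. Wild type replicates 1 and 2 held 41541 and 26238 loci and about 87.0 and 51.3 M fragments, all 4 depths read from the steps between the deposited confidence bounds. Loci were joined to genes by their position on exons, and a gene is said to have no locus where none was joined to it and kept. Gene values were divided by a factor for each library to give scaled FPKM. A gene with no locus is not a gene at 0: albumin (Alb), the main protein made by hepatocytes, had no locus in any library. Hjv was not assembled in knockout replicate 1 and stood at 0.237 scaled FPKM in knockout replicate 2, against 9.24 and 29.7 scaled FPKM in wild type replicates 1 and 2. The summed level of 6 hepatocyte markers was 11275 and 11793 scaled FPKM in knockout and 10194 and 9663 in wild type libraries, although Tat, one of the 6, was lower in knockout (245 and 239, against 456 and 408). The summed level of 5 Kupffer cell and macrophage markers was 67.3 and 91.6 scaled FPKM in knockout and 97.2 and 117 in wild type libraries. The summed endothelial, stellate and cholangiocyte markers overlapped between the groups. What part any of these have in the results below was not tested. In RNA from whole liver, fewer cells of a type and less RNA per cell cannot be told apart.

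The sequences just before the starts of Cyp2c39 and its closest relatives are shown because these genes lie side by side and read closely alike there, while their levels differed widely. RefSeq (GRCm38.p6) gives Cyp2c39 a distal and a proximal start, 163 kb apart, and a promoter was found for 9 of the 10 members. Each line holds 250 bases before the RefSeq start and 20 after it, 5′ to 3′ on the strand of the gene. Capitals mark TATAAA (the TATA box, sense strand), TGTTTAC (a forkhead motif) and AGGTCA (a nuclear receptor site), the last pair on either strand.
Cyp2c39, proximal start (chr19:39510572-39510841, plus strand): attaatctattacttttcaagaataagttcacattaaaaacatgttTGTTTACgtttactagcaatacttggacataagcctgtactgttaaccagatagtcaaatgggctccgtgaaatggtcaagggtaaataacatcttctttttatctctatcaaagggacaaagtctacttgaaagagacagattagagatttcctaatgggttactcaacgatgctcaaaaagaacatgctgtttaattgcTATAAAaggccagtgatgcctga
Cyp2c39, distal start (chr19:39347096-39347365, plus strand): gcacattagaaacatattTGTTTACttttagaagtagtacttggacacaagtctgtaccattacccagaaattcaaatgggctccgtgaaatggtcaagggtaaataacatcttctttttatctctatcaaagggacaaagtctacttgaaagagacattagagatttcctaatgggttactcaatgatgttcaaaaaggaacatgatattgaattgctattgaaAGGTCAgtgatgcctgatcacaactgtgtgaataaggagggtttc
Cyp2c38 (chr19:39463056-39463325, minus strand): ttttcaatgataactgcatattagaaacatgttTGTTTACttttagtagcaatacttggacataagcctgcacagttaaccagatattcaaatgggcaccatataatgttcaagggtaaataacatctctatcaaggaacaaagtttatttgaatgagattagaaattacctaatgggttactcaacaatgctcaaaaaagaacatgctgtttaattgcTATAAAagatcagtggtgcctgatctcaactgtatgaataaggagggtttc
Cyp2c29 (chr19:39286835-39287104, plus strand): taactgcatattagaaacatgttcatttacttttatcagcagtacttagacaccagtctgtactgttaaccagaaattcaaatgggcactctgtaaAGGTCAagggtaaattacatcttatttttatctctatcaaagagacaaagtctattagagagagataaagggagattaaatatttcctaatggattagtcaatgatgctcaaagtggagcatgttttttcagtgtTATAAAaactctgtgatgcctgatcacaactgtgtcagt
Aligned over these windows, the 270 bases at the proximal Cyp2c39 start were 90.8% identical to those at its distal start over 240 aligned bases. They were 89.2% identical to those of Cyp2c38 over 241 aligned bases and 81.8% to those of Cyp2c29 over 247. TATAAA lay at -3 from the proximal RefSeq start of Cyp2c39, at -31 in Cyp2c38 and at -19 in Cyp2c29, and was not found at the distal start. The proximal RefSeq start, 39510822, lies before the GENCODE M21 start of Cyp2c39, 39510862, so the -3 depends on the annotation used. TGTTTAC was found before both Cyp2c39 starts, at -204 and -232, and before Cyp2c38, at -217, but not before Cyp2c29. AGGTCA was found at -25 before the distal Cyp2c39 start and at -154 before Cyp2c29. Over 32851 RefSeq promoters of the same 270 bases, 7.91% held TATAAA, 3.38% held TGTTTAC and 15.0% held AGGTCA. These are matches of letters in a window, and no binding was measured.

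Cyp2c39, an enzyme known to hydroxylate retinoic acid in mouse liver, had 67.9 and 117 scaled FPKM in Hjv knockout replicates 1 and 2, against 1.68 and 0.816 scaled FPKM in wild type replicates 1 and 2. Both knockout libraries were high and both wild type libraries low, with a wide gap between the groups. The mean level was 92.3 ± 34.5 scaled FPKM in knockout and 1.25 ± 0.61 scaled FPKM in wild type liver (SD, n = 2 each), a ratio of means of 74.0. On log2(scaled FPKM + 1) the difference was 5.35, with a standard error of 0.35 from limma fitted over all genes. With a pseudocount of 0.1 in place of 1 it was 6.13, since the wild type levels lie near 1. About 8159 and 26535 fragments stood behind the knockout values and about 247 and 69 behind the wild type values, so the low values are the least precise. The authors' confidence bounds of the main locus were 75.2 to 78.9 and 102 to 105 FPKM in the knockout libraries, and 1.19 to 1.92 and 0.536 to 0.940 FPKM in the wild type libraries. The deposited FPKM of both knockout loci, 81.7 and 111, lay above their own upper bounds, as did 23 of the 33 member loci that covered more than 50% of a gene. With the middle of the bounds as the value, an alternative added after seeing the data, the log2 difference was 5.33.

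Among the 7915 genes tested, Cyp2c39, chosen on this same contrast, had the second largest log2 difference. Only genes with a value in every library were tested, so a gene missing from a library, such as Hjv, could not be ranked. The largest, 6.55 in Arhgef12, came from 1 library: 159389 scaled FPKM in knockout replicate 1 and 14.9 in knockout replicate 2, against 17.0 and 15.0 in the wild type libraries. The groups of Cyp2c39 did not overlap.

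**Figure D1:**
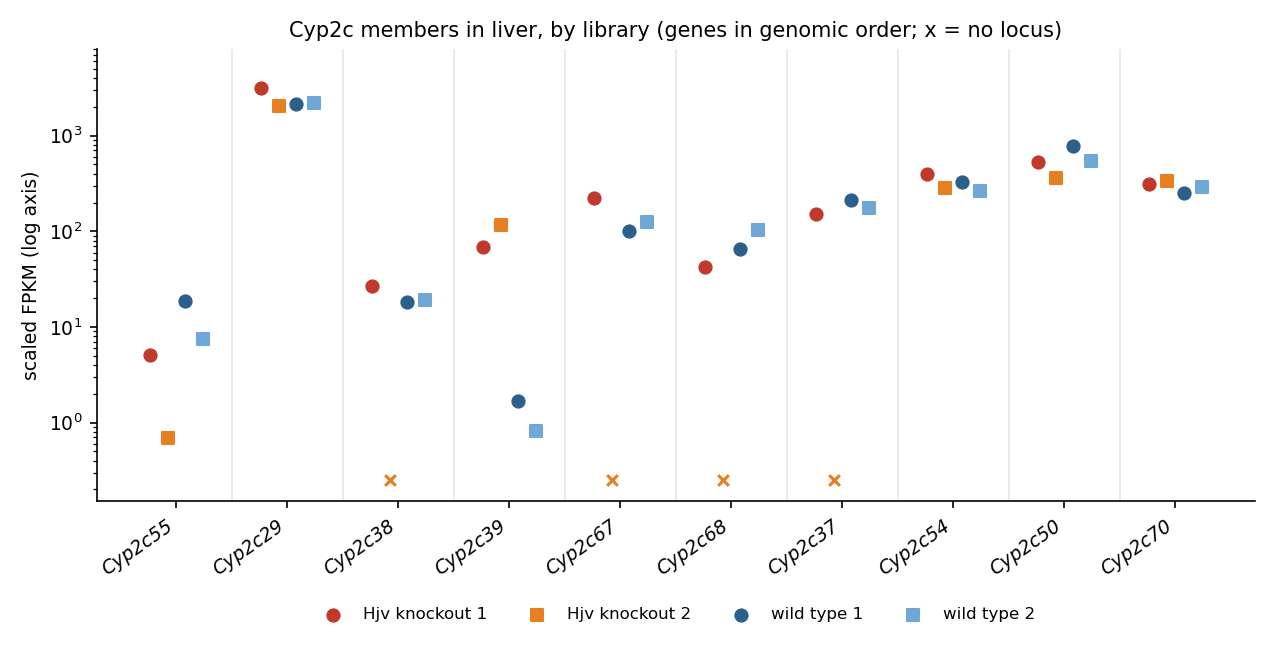
Scaled FPKM (log axis) of the 10 Cyp2c members in each library, in genomic order, with Hjv knockout libraries in red and orange left of wild type libraries in blue; a cross marks a library with no locus. Cyp2c39 is at 67.9 and 117 in the knockout libraries and at 1.68 and 0.816 in the wild type libraries, while the other members with a value in all 4 libraries lie closer together.

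A single assembled locus ran the length of Cyp2c39 in both knockout libraries. The files give the ends of a locus and not its exons or junctions, so exons are counted here as annotated exons inside those ends. The gene lies at chr19:39510862-39568529 on the plus strand (GENCODE M21, GRCm38) with 9 exons. It took in all 9 exons in knockout replicate 1 (39510860 to 39569530) and in knockout replicate 2 (39510805 to 39569102), and its span held 100% of the exonic bases in each. In wild type replicate 1 a locus over 3 exons and a locus over 6 exons together covered 79.0% of the transcript, with none over the long intron between them. In wild type replicate 2 a single locus (39510928 to 39568708) touched all 9 exons and covered 96.3%. The knockout loci ran 1001 and 573 bases past the GENCODE end of the gene, and RefSeq places its end at 39569568. Short separate loci lay before that RefSeq end in the wild type libraries, at 0.757 scaled FPKM in replicate 1, where the locus began just inside the GENCODE gene, and at 1.59 in replicate 2.

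**Figure D2:**
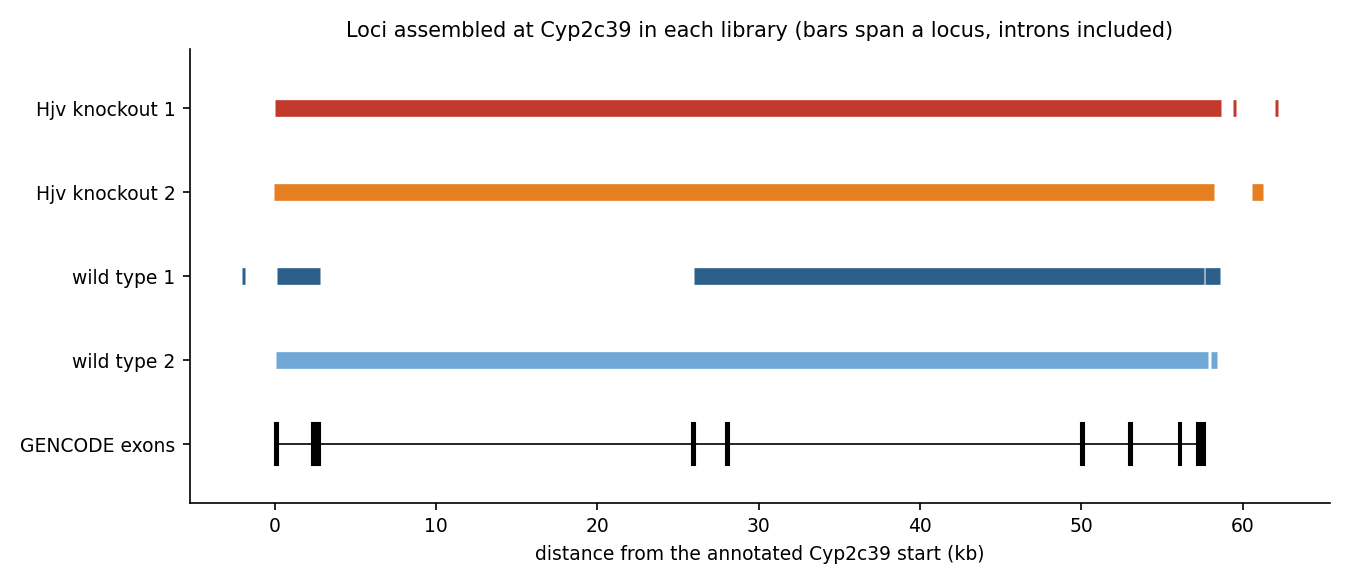
Loci assembled at Cyp2c39 in each library, as distance in kb from the annotated start, with the 2 Hjv knockout libraries above the 2 wild type libraries and the GENCODE exons as black boxes; very short loci and exons are widened to be visible. One unbroken locus spans the 9 exons in both knockout libraries and in wild type replicate 2, and wild type replicate 1 has separate loci over 3 and 6 exons.

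At the distal RefSeq start of Cyp2c39 (39347346), only knockout replicate 2 had a locus within 1000 bases. It began 131 bases after that start, was 57 bases long and had bounds of 13.996 to 21.7 FPKM, equal to 105 to 163 fragments. Its deposited FPKM was 3811290, far above those bounds, so it failed the limit of 3 times the middle of the bounds and gave no gene a value. It was a locus apart from the main Cyp2c39 locus of that library, and the RefSeq pseudogene Cyp2c72-ps overlaps this place, so its fragments cannot be assigned to 1 of the 2 annotations.

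Reads of near-identical genes can be assigned to the wrong copy, so the coding sequences were compared. Over the 45 pairs of members, coding identity ran from 66.8% to 97.1%, with a median of 77.4%. Cyp2c39 was 94.2% identical to Cyp2c38, whose longest run of identical coding bases with it was 98, and 89.5% identical to Cyp2c29, with a longest run of 56. The 98 bases, which cross from exon 3 to exon 4, are shown with 10 coding bases on each side (coding bases 432 to 549, GENCODE M21 transcripts), since a read inside them cannot be placed; capitals mark bases that differ from Cyp2c39.
Cyp2c39: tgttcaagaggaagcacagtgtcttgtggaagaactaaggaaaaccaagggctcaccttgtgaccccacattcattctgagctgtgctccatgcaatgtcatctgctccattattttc
Cyp2c38: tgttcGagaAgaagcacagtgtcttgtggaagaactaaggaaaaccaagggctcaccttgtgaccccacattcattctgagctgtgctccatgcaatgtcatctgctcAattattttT
Cyp2c29: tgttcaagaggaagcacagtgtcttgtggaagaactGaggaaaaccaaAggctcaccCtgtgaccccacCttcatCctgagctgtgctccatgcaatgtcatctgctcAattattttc
In this window Cyp2c38 differed from Cyp2c39 at 4 bases and Cyp2c29 at 6 bases. Of the 50-base words of the Cyp2c39 transcript, 11.4% occurred in another Cyp2c gene, of the 75-base words 2.98%, and of the 100-base words 0%. No assembled locus touched exons of 2 Cyp2c genes: 0 of 17 and 6 loci on member exons in the knockout libraries, and 0 of 14 and 12 in the wild type libraries. Cyp2c38 stood at 26.9 scaled FPKM in knockout replicate 1, below Cyp2c39 there, and had no locus in knockout replicate 2. Summed over the pair, Cyp2c39 and Cyp2c38 gave 94.8 scaled FPKM in knockout replicate 1 and no sum in knockout replicate 2, against 19.98 and 19.82 in the wild type libraries. The effect of multiply placed reads on the deposited FPKM was not tested.

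**Figure D3:**
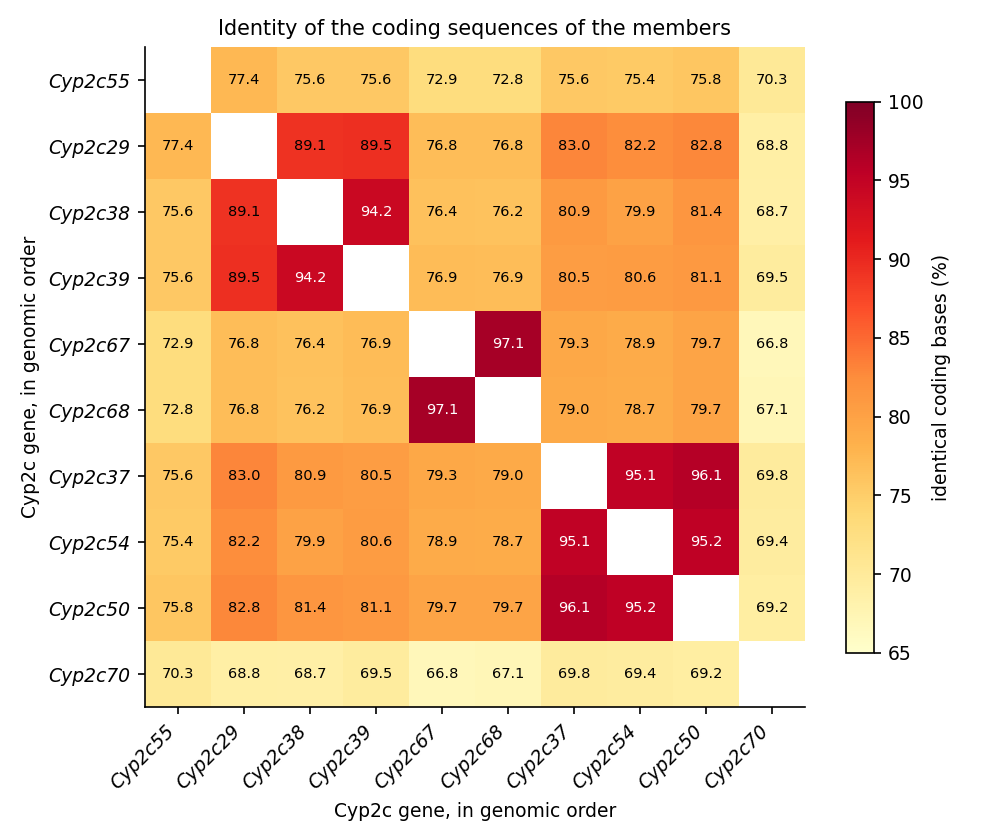
Percent identical bases between the coding sequences of each pair of members, in genomic order on both axes; the colour scale starts at 65%. The blocks of highest identity are Cyp2c38 and Cyp2c39 at 94.2%, Cyp2c67 and Cyp2c68 at 97.1%, and Cyp2c37, Cyp2c54 and Cyp2c50 at 95.1% to 96.1%.

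Of the 10 members, 6 had a locus in all 4 libraries and 5 passed the limits on span and level and were tested. Of these 5, Cyp2c39 and Cyp2c70 were above both wild type libraries in both knockout libraries, 2 members where 22.4% of all genes tested were so placed. Cyp2c50 was below in both, 1 member where 23.7% of all genes were. Since the genotype contrast chose the members, nothing is read from these counts. Among the 5, Cyp2c39 alone had a difference of at least 2-fold without overlap, as 2.55% of all genes did in this direction and 1.33% in the other. With values as deposited, 2897 genes lay above and 678 below without overlap, against 1771 and 1873 after scaling and 1478 and 2027 after quantile normalization. The median log2 difference of all genes tested was 0.19 as deposited, 0.02 scaled and -0.03 with quantile normalization, and the 5 members' median was 0.44, 0.23 and 0.30 on the same scales. By limma no gene passed an adjusted p of 0.05, 0% of those tested. At an unadjusted p under 0.05 there were 456 genes higher and 419 lower. Without knockout replicate 1, limma passed 572 genes, and without knockout replicate 2 it passed 15.

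Cyp2c29, an arachidonic acid epoxygenase that is strongly inducible by phenobarbital, was the most abundant member in every library. It had 3184 and 2058 scaled FPKM in the knockout libraries, against 2166 and 2194 in wild type libraries. The knockout libraries fell on either side of the wild type pair, so the groups overlapped, and the log2 difference was 0.23 with a standard error of 0.30. It made up 64.4% and 65.2% of the summed member level in knockout libraries and 55.0% and 58.9% in wild type libraries, with 6 members behind the sum in knockout replicate 2 and 10 in each other library.

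Cyp2c50 and Cyp2c54, arachidonic acid epoxygenases that share 95.2% of their coding bases, came next in level. Cyp2c50 had 536 and 361 scaled FPKM in knockout and 771 and 543 in wild type libraries, a log2 difference of -0.56 with a standard error of 0.31. Knockout replicate 1 lay only just below wild type replicate 2, and the groups overlapped with values as deposited, with quantile normalization and with the middle of the bounds. Cyp2c54 had 393 and 280 scaled FPKM in knockout and 328 and 262 in wild type libraries, so its groups overlapped, with a log2 difference of 0.18 and a standard error of 0.26. Its promoter is not shown for want of an entry in the RefSeq table.

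Cyp2c37, which in mice makes 12-HETE from arachidonic acid, had 152 scaled FPKM in knockout replicate 1 and no locus in knockout replicate 2, against 213 and 175 scaled FPKM in wild type libraries. Its value in knockout replicate 1 came from 3 separate loci at 145, 25.9 and 311 deposited FPKM, so its coverage there was uneven. Of its 50-base words 30.1% occurred in another Cyp2c gene, so the split of reads among Cyp2c37, Cyp2c50 and Cyp2c54 is uncertain. The 3 genes together gave 1082 scaled FPKM in knockout replicate 1, between 1312 and 979 in wild type replicates 1 and 2.

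Cyp2c70, which makes muricholic acids from chenodeoxycholic acid in mice and shares no 50-base word with another Cyp2c gene, had 312 and 338 scaled FPKM in the knockout libraries. In wild type libraries it had 253 and 292 scaled FPKM. Each knockout library exceeded each wild type library by a small margin, and the log2 difference of 0.25 had a standard error of 0.20. Of the 5 members tested, it varied least between the knockout libraries.

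Cyp2c38, an arachidonic acid epoxygenase, had 26.9 scaled FPKM in knockout replicate 1, none in knockout replicate 2, and 18.3 and 19.01 scaled FPKM in wild type libraries. Its main loci ended 1137 to 1228 bases short of the annotated 3′ end, and covered 57.5% and 56.8% of the transcript in wild type libraries. Cyp2c67 had 221 scaled FPKM in knockout replicate 1 and none in knockout replicate 2, against 101 and 125 in wild type libraries. Cyp2c68 had 42.4 scaled FPKM in knockout replicate 1 and none in knockout replicate 2, against 65.6 and 104 in wild type libraries. The pair Cyp2c67 and Cyp2c68 shared 52.8% and 43.3% of their 50-base words with other Cyp2c genes, mostly Cyp2c40, and their levels are uncertain for that reason. Their sum was 264 scaled FPKM in knockout replicate 1, against 167 and 229 in wild type libraries.

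Cyp2c55, an enzyme that makes 19-HETE and is known from the intestine as well as the liver, had 5.08 and 0.685 scaled FPKM in the knockout libraries. In wild type libraries it had 18.7 and 7.54 scaled FPKM. Both knockout libraries were below both wild type libraries, but the loci of knockout replicate 1 covered only 44.0% of the transcript, so the gene did not pass the limit on span. Without that limit it was the second member below. Of 4 enterocyte markers, Vil1, Lct and Cdh17 had no locus in any library. Fabp2, the other one, had 58.8 and 40.2 scaled FPKM in knockout and 98.3 and 99.7 in wild type libraries. What part such cells have in the Cyp2c55 values was not tested.

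The absence of 4 members from knockout replicate 2 was uncommon among expressed genes. Of 2962 genes with at least 10 scaled FPKM in each of the other 3 libraries, 2.94% had no locus in knockout replicate 2, while 4 of the 8 members at that level had none: Cyp2c38, Cyp2c37, Cyp2c67 and Cyp2c68. The same share was 0.243% for knockout replicate 1, 0.248% for wild type replicate 1 and 0.390% for wild type replicate 2, where 0 of 4 members were missing each time. In knockout replicate 2 no locus touched exons of these members, but loci off coding exons lay inside Cyp2c67 and Cyp2c37. A missing locus gives no level, and the cause was not tested.

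The order of levels was the same at the top in every library and changed at the bottom. Cyp2c29 was first and Cyp2c50 second in all 4 libraries. Cyp2c54 and Cyp2c70 followed, in either order in each genotype, and did not differ beyond their spread. Cyp2c39 ranked 7th of 10 in knockout replicate 1 and 5th of 6 in knockout replicate 2, with 1.37% and 3.70% of the summed member level. In both wild type libraries it ranked last of 10, with 0.0426% and 0.0219%.

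The knockout libraries differed from each other more than the wild type libraries did. The SD over all genes of the log2 difference was 0.64 between the knockout libraries and 0.41 between the wild type libraries. Knockout replicate 2 minus replicate 1 came to 0.77 on the log2 scale for Cyp2c39, 0.12 for Cyp2c70, -0.49 for Cyp2c54, -0.57 for Cyp2c50 and -0.63 for Cyp2c29. Member transcripts hold 39.6% to 43.5% G and C, below the median of 49.3% of all genes tested. The 1112 tested genes in that range had a median of -0.19 for the same difference, against 0.00 for all genes tested. Knockout replicate 1 was above both wild type libraries in 6 of 10 members and below both in 4, where 39.6% and 38.3% of all genes tested were. Knockout replicate 2 was above both in 2 of the 6 members with a locus there and below both in 3, where 39.9% and 41.4% of all genes tested were.

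The 5 genes whose pattern over the 4 libraries lay nearest to that of Cyp2c39, by Euclidean distance of centred log2(scaled FPKM + 1), were Igfbp2, Oaf, Apoa4, Asic5 and Rplp1, at distances of 2.59 to 3.16. Igfbp2, which encodes a binding protein for insulin-like growth factors, had 189 and 458 scaled FPKM in knockout and 76.4 and 11.1 in wild type libraries. Oaf had 70.1 and 131 scaled FPKM in knockout and 12.0 and 13.6 in wild type libraries. Apoa4, an apolipoprotein, had 96.7 and 337 scaled FPKM in knockout and 24.6 and 33.2 in wild type libraries. Asic5, which encodes a bile acid-sensitive ion channel, had 36.3 and 14.2 scaled FPKM in knockout and 3.11 and 2.69 in wild type libraries. Rplp1, a ribosomal protein gene, had 82.9 and 641 scaled FPKM in knockout and 35.5 and 37.7 in wild type libraries. Each had higher values in both knockout libraries, which follows from the choice by nearness to Cyp2c39 and is not a separate result. The log2 difference of Cyp2c39 was larger than theirs of 2.61 to 3.27.

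RNA was also assembled between the genes of the cluster, which spans 1180315 bases from Cyp2c55 to Cyp2c70 with 14 coding Cyp2c genes and 13 intervals between them. Between Cyp2c67 and Cyp2c68 (chr19:39649052-39688833), knockout replicates 1 and 2 had 17 and 7 loci that covered 5864 and 11917 bases, and both wild type libraries had 0. Of the bases covered there, 4691 were common to both knockout libraries, 80.0% of those in replicate 1 and 39.4% of those in replicate 2. One pair of overlapping loci lay at 39677317 to 39677786 in replicate 1 and 39677303 to 39677789 in replicate 2, at 10.5 and 6.27 FPKM. The value in replicate 1 lay above its own bounds of 5.51 to 8.10 FPKM. In replicate 2 the bounds ran from 3.29 to 4951750 FPKM, so the level there is uncertain. Over 7139 intervals of 15860 to 105624 bases between neighbouring coding genes, the range of the 13, 2.61% had loci in both knockout libraries and none in either wild type library.

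In 4 of the 13 intervals both knockout libraries had more covered bases than both wild type libraries, as 5.50% of the 7139 intervals did. Between Cyp2c29 and Cyp2c38 the covered length was 2002 and 2975 bases in knockout libraries and 668 and 0 bases in wild type libraries. Of this, 1472 and 1429 bases in the knockout libraries lay in the 10 kb past the 3′ end of Cyp2c38, where both wild type libraries had 0. Between Cyp2c39 and Cyp2c67 it was 1792 and 3008 bases in knockout libraries and 0 and 371 bases in wild type libraries. Between Cyp2c50 and Cyp2c70 it was 1127 and 2598 bases in knockout libraries and 368 and 381 bases in wild type libraries. The interval from Cyp2c37 to Cyp2c54 ran the other way, with 0 bases in both knockout libraries and 3553 and 2162 bases in wild type libraries, as in 2.13% of the 7139 intervals. Loci that touch no coding exon made up 45.8% and 37.5% of all loci in the knockout libraries and 41.4% and 22.0% in the wild type libraries, so the libraries differed in this across the genome; its part in the intervals was not tested.

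**Figure D4:**
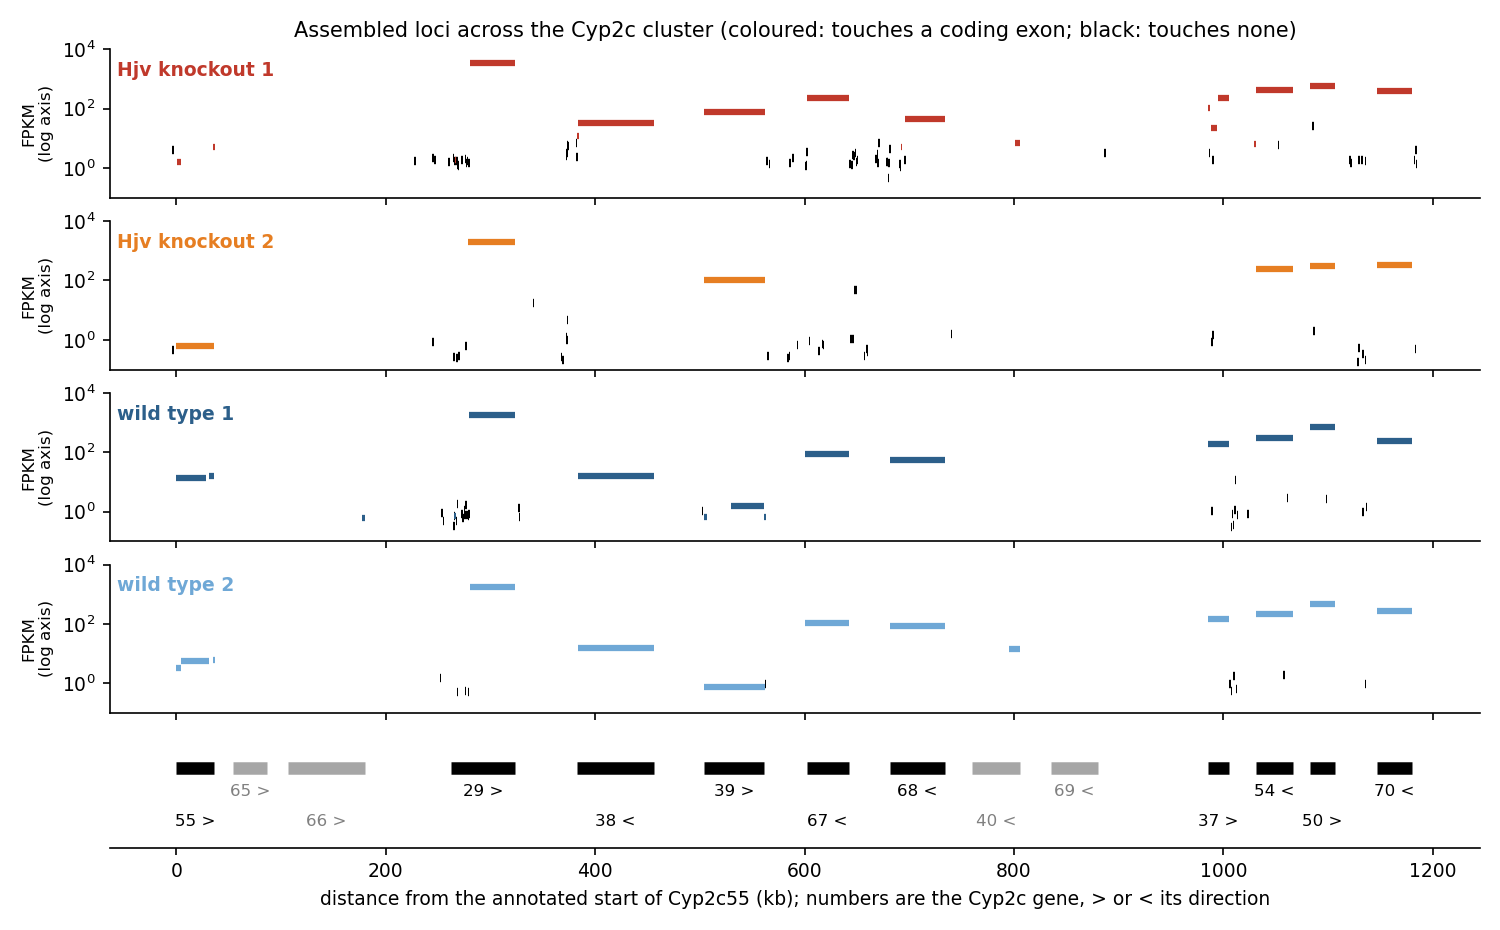
Assembled loci across the Cyp2c cluster in each library, the 2 Hjv knockout libraries above the 2 wild type libraries, by distance in kb from the start of Cyp2c55 and by the middle of their FPKM bounds (log axis); loci on coding exons are coloured, others black, short loci are widened to be visible, and gene numbers with their direction stand at the bottom (members black, other genes grey). The Cyp2c39 bar sits high in both knockout libraries and low in both wild type libraries, and the black marks between Cyp2c67 and Cyp2c68 appear in the knockout libraries alone. In that interval the loci of knockout replicate 2 that start at 670 and 678 kb have a middle of 2475880 FPKM, above the axis, and are not seen.

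Other coding Cyp2c genes were low or absent. Cyp2c65 and Cyp2c69 had no locus in any library, Cyp2c66 had 0.873 scaled FPKM in wild type replicate 1 alone, and Cyp2c40 had a value, 15.9, in wild type replicate 2 alone. A locus over 2 exons of Cyp2c40 was also assembled in knockout replicate 1, with bounds of 5.34 to 8.75 FPKM. Its deposited 21.6 FPKM exceeded 3 times the middle of those bounds, so it was left out. Cyp2c23, an epoxygenase gene outside the cluster on chromosome 19, had 152 and 180 scaled FPKM in knockout and 192 and 195 in wild type libraries, a log2 difference of -0.22 that was -0.01 with values as deposited.

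Lists of genes that regulate Cyp2c enzymes, supply them with electrons or work beside them were then read in the same libraries. None of their genes passed the adjusted threshold by limma, so each list is given as its count of genes whose groups did not overlap and its median, against 22.4% above, 23.7% below and a median of 0.02 over all genes tested. Counts with values as deposited are to be read against 2897 above and 678 below of 7915 genes, with a median of 0.19. Of 15 tested target genes of CAR and PXR, 6 lay above and 1 below, with a median of 0.11, and 8 above and 1 below with values as deposited. Slco1a4, an organic anion uptake transporter, had 22.3 and 16.2 scaled FPKM in knockout and 8.24 and 6.01 in wild type libraries. Cyp2a5, a coumarin hydroxylase, had 260 and 154 scaled FPKM in knockout and 344 and 429 in wild type libraries. Abcc3, an efflux transporter, and Sult1d1, a sulfotransferase, had log2 differences of 0.65 and 0.57. These targets thus lay on both sides of the wild type level.

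Of 15 tested nuclear receptors and hepatocyte factors, 6 lay above and 4 below, with a median of 0.06, and 0 lay below with values as deposited. Rxra, the partner receptor of CAR and PXR, had 37.8 and 69.3 scaled FPKM in knockout and 20.4 and 20.2 in wild type libraries. Foxa2, a forkhead factor, had 17.4 and 18.3 scaled FPKM in knockout and 10.6 and 8.46 in wild type libraries. Cebpa, a leucine zipper factor of hepatocytes, had a log2 difference of 0.63. Bcl6, a repressor, had 3.80 and 3.67 scaled FPKM in knockout and 4.21 and 15.5 in wild type libraries, so its difference rested on wild type replicate 2, and its groups overlapped with values as deposited.

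Of 5 tested electron donor genes, 1 lay above and 2 below. Cyb5r3, which encodes the reductase of cytochrome b5, had 85.8 and 72.7 scaled FPKM in knockout and 165 and 196 in wild type libraries. Cyb5b, the cytochrome b5 of the outer mitochondrial membrane, had 86.1 and 88.4 scaled FPKM in knockout and 137 and 135 in wild type libraries. Cyb5a, the microsomal cytochrome b5, had 1729 and 1475 scaled FPKM in knockout and 1335 and 784 in wild type libraries. The microsomal form was above wild type and the mitochondrial one below, each without overlap. Por, which encodes cytochrome P450 reductase, and Pgrmc1 had log2 differences of 0.22 and 0.09, with groups that overlapped.

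Of 9 tested epoxide hydrolase and arachidonate genes, 1 lay above and 3 below, with a median of 0.09. Ephx1, the microsomal epoxide hydrolase, had a log2 difference of 0.25. The epoxygenase genes Cyp2j5 and Cyp2j6 had -0.36 and -0.44, and Ephx2, the soluble epoxide hydrolase, had -0.28 with groups that overlapped on the deposited scale. Of 13 tested retinoid genes, 3 lay above and 3 below, with a median of -0.02, but 5 above and 2 below with values as deposited. Rara, a retinoic acid receptor gene, had 2.64 and 6.25 scaled FPKM in knockout and 1.59 and 1.98 in wild type libraries. Rdh11, a retinal reductase, had 18.7 and 17.5 scaled FPKM in knockout and 29.1 and 31.0 in wild type libraries. Aldh1a7, of the retinaldehyde dehydrogenase family, had a log2 difference of -0.51, and Lrat, which esterifies retinol, had 0.47.

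Of 19 tested genes in a list of other hepatic P450 genes, 3 lay above and 4 below, but 7 above and 4 below with values as deposited. P450 genes of the lists above, such as Cyp2a5, Cyp2j5 and Cyp2j6, which lay below, are not among the 19. Cyp7a1, the rate-limiting enzyme of bile acid synthesis, had 16.2 and 26.5 scaled FPKM in knockout and 6.04 and 12.4 in wild type libraries. Cyp17a1, a steroid hydroxylase, had 3.48 and 9.81 scaled FPKM in knockout and 16.8 and 29.7 in wild type libraries. Cyp4v3 had a log2 difference of -0.94 and Cyp4b1 one of 0.67. Among zonation genes, 2 of 12 pericentral genes lay above and 3 below, with a median of -0.10 (4 above and 3 below as deposited), and 1 of 11 periportal genes above and 5 below, with a median of -0.29 (2 above and 4 below as deposited). Of the pericentral ones, Oat, a mitochondrial aminotransferase, had a log2 difference of -0.75, Slc1a2, a glutamate transporter, -0.86, and Axin2, a Wnt target, 0.45. Of the periportal ones, Ass1, of the urea cycle, had -0.82, Pck1, of gluconeogenesis, -0.65, Tat, of tyrosine breakdown, -0.83, and Aldh1b1 0.76.

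Of 9 tested male-biased liver genes, 0 lay above and 5 below, with a median of -0.66. The groups of Cyp2d9, Slco1a1, Cyp7b1 and Cyp4a12a overlapped, with log2 differences of -0.77, -0.16, -0.12 and 0.02. Hsd3b5, a steroid dehydrogenase, had 50.7 and 37.5 scaled FPKM in knockout and 174 and 179 in wild type libraries. C6, a complement gene, had 33.2 and 24.1 scaled FPKM in knockout and 102 and 118 in wild type libraries. Elovl3, a fatty acid elongase, had 45.6 and 52.8 scaled FPKM in knockout and 162 and 85.5 in wild type libraries, and Cyp2u1 had a log2 difference of -0.66. The median was -0.47 as deposited and -0.68 with quantile normalization. Of 17 female-biased genes 2 were tested, Acot3 and Fmo2, with log2 differences of 0.10 each and overlapping groups, and Fmo2 turned to -0.01 with quantile normalization. The list medians of the other hepatic P450 and pericentral genes were also of the other sign as deposited, at 0.09 each, and the retinoid median turned to 0.19 as deposited and 0.05 with quantile normalization. The median of all genes tested moved as well, to 0.19 as deposited and -0.03 with quantile normalization.

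**Figure D5:**
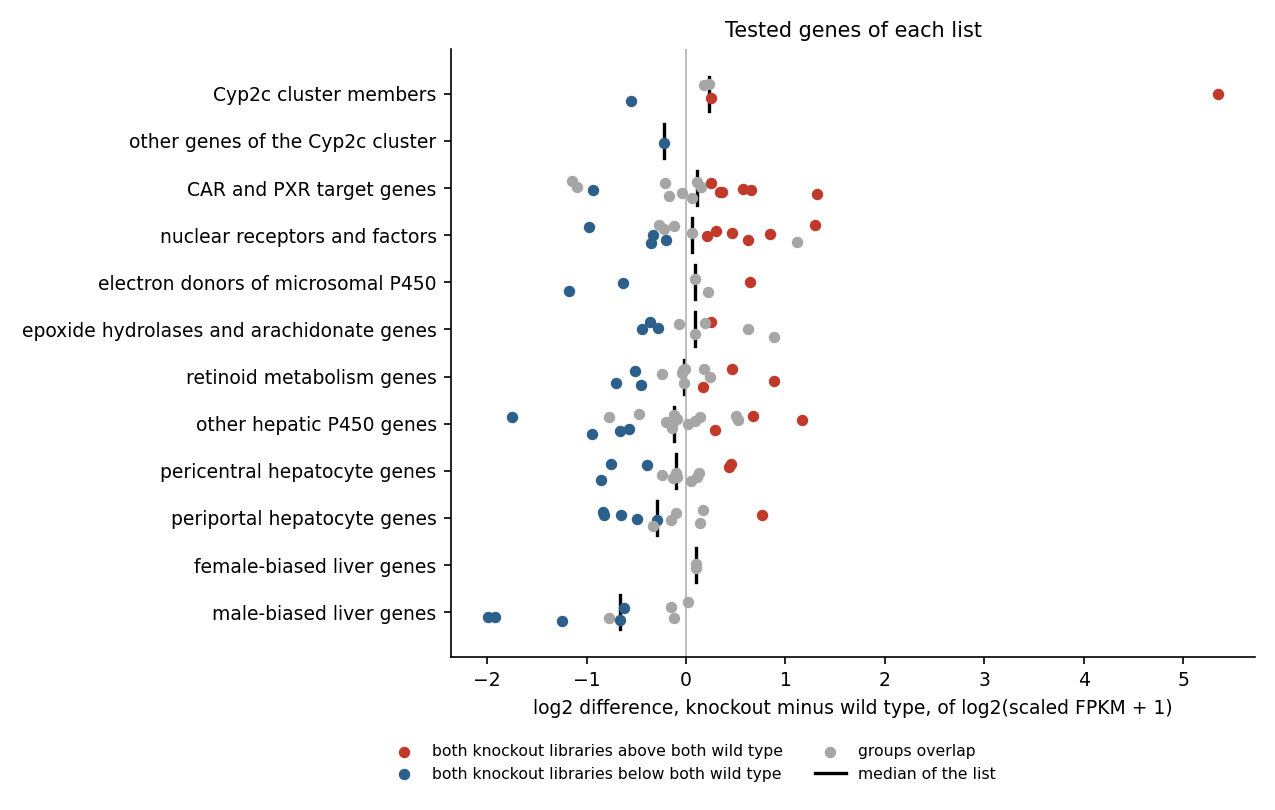
Log2 difference, knockout minus wild type, of log2(scaled FPKM + 1) for each tested gene of each list, with a black bar at the list's median; red points lie above in both Hjv knockout libraries, blue points below in both, and grey points overlap. Cyp2c39 lies alone at 5.35, and 5 of 9 male-biased genes lie below without overlap.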

How the data were processed

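Liver RNA of 2 Hjv knockout and 2 wild type libraries was sequenced from TruSeq libraries on a HiSeq instrument, per the labels' protocols. Per the submitters' processing notes the tools were FastQC, TopHat and Cufflinks and the build mm9; no versions are given in the sources used here. The deposited values are FPKM by the authors with confidence bounds, for loci assembled per library without names; how multiply placed reads were counted is not given in the sources used here. The coordinates fit GRCm38: of 33 member loci over 50% of a gene, 6 starts and 11 ends lay within 20 bases of GENCODE M21 ends.

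Each locus was given to the coding gene whose exons it overlapped most, provided 50% or more of its length lay inside, and loci with an FPKM over 3 times the middle of their bounds were left out. Gene values were means weighted by exonic bases, required loci over at least 50% of a transcript, and were scaled by median ratios (factors 1.20 and 0.951 for knockout, 0.934 and 0.914 for wild type). Of 11516 genes with a value in any library, 7930 had a value in every library and were kept. Those with 1 FPKM in 2 libraries or more were tested with limma 3.58.1 (R 4.3.3, mean-variance trend, two-sided, Benjamini-Hochberg) on log2(scaled FPKM + 1), also on simulated data. An exact permutation test of 1 gene cannot go below 0.333. Depth was read from steps between bounds, whole within 0.05 for at least 99.4% of bounds. Coding identity came from alignments in Biopython 1.88.

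The members, gene lists and tests were chosen with earlier results of these data known. Named were all members, the 5 genes nearest to Cyp2c39, Hjv, and up to 4 leading genes of each list; Arhgef12 was named after its values were seen, and 1 gene of the pericentral list, counted there, is not reported here by name. Alternatives were pseudocount, filters, scaling, locus choice, span, trend, block and each library left out, and later the middle of the bounds.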

Additional observations from a re-analysis of the deposited data

Results flagged for a closer look

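The loci below carry no annotated coding exon and so entered no comparison of genes. The intervals were listed because both knockout libraries had more covered bases than both wild type libraries, as 5.50% of 7139 intervals did. The interval from Cyp2c37 to Cyp2c54 ran the other way, with 0 bases in both knockout libraries and 3553 and 2162 in the wild type libraries. Between Cyp2c67 and Cyp2c68 the loci covered 5864 and 11917 bases in knockout replicates 1 and 2 and 0 in both wild type libraries. Between Cyp2c29 and Cyp2c38 they covered 2002 and 2975 bases in the knockout libraries and 668 and 0 in the wild type libraries. Between Cyp2c39 and Cyp2c67 the values were 1792 and 3008 bases in the knockout libraries and 0 and 371 in the wild type libraries. Between Cyp2c50 and Cyp2c70 they were 1127 and 2598 bases in the knockout libraries and 368 and 381 in the wild type libraries. The locus after the distal Cyp2c39 start had a lower bound of 13.996 FPKM in knockout replicate 2, where its deposited value of 3811290 FPKM exceeded 3 times the middle of its bounds, and no other library had a locus there. Loci off coding exons made up 45.8% and 37.5% of all loci in the knockout libraries and 41.4% and 22.0% in the wild type libraries, and what part this has was not tested.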

How the results depend on the processing

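Groups of 2 libraries give little power, and wild type Cyp2c39 rests on about 247 and 69 fragments. Cyp2c39 was chosen on this contrast, and its wide gap between the groups left little room for a change of sign. Its log2 difference stayed positive under every alternative run. It was 6.13 with a pseudocount of 0.1, 5.35 with the replicate block, and 4.97 to 5.74 with each library left out. The replicate numbers gave no sign of pairing, with a correlation of 0.087 between the deviations of same-numbered libraries. Members below numbered 0 with values as deposited, quantile normalization or the middle of the bounds, 2 with no minimum span, and 1 to 2 with a library left out; members above numbered 2 to 4 then. Limma passed 1 gene with values as deposited, 0 with the replicate block, and 1 to 572 with a library left out: 572 without knockout replicate 1, 15 without knockout replicate 2, and 1 without either wild type library, a lone library being assumed to vary like the others. Genes at least 2-fold higher numbered 316 with a pseudocount of 0.1, 369 as deposited, 368 with loci summed, and 155 to 570 with a library left out, against 202. Genes at least 2-fold lower numbered 53 as deposited, 212 with loci summed, and 135 to 209 with a library left out, against 105. Cyp2c29 and Cyp2c54 turned to -0.08 and -0.06 without knockout replicate 1. The causes were not tested.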
